A study of Mus musculus with 6 samples.

Results

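The 9 genes described here encode ETS transcription factors of endothelium and blood: Etv2, Fli1, Erg, Ets1, Ets2, Elk3, Etv6, Elf1 and Spi1. They were chosen by name out of 18193 genes with a probe set of their own. On the arrays they had 21 probe sets that carry a single gene symbol, and each gene is described by the probe set with the highest mean over the 6 arrays. RNA came from mouse embryos of mixed strain background at embryonic day 9.5, with no transgene, deletion or treatment named and Wt in every sample's name. Cells were freshly taken from 3 tissues, namely heart tube, caudal-half tissue (here called caudal tissue) and yolk sac, and sorted for surface CD31 and for absence of CD41 and CD45, which the labels describe as enriching for endothelial cells. Each tissue has 2 independent biological replicates, each on its own array. How many embryos were pooled per sample is not stated in those labels.

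ETS factors bind DNA through a conserved winged helix-turn-helix domain that reads the core GGAA, and enhancers of most endothelial genes hold such cores. Etv2 acts early and for a short time to set mesoderm on the path to blood and endothelium, after which Fli1, Erg and other ETS factors maintain endothelial expression. Spi1, also called PU.1, directs myeloid and lymphoid differentiation, Etv6 is a repressor needed for blood stem cells and yolk sac vessels, and Elk3 is a ternary complex factor that works with the serum response factor Srf.

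Promoter windows from RefSeq (build GRCm38.p6, 250 bases before to 50 bases after an annotated start) were matched for 6 of the 9 genes, with 9 windows in all. Fli1, Ets1 and Spi1 had no entry. The 3 windows below belong to members that differed between tissues. They run 5′ to 3′ on the strand of the gene, and capitals mark GGAA or its reverse complement TTCC. They lie at chr7:30635803-30636102 (minus strand) for Etv2, chr6:134035450-134035749 (plus strand) for Etv6 and chr16:95586544-95586843 (minus strand) for the most upstream of the 3 annotated starts of Erg.
Etv2: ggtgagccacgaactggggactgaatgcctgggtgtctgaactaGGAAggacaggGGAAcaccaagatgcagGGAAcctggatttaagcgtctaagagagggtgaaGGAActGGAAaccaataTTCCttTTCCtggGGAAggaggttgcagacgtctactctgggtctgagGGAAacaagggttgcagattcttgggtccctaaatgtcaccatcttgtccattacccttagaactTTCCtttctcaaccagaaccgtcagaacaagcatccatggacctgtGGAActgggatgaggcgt
Etv6: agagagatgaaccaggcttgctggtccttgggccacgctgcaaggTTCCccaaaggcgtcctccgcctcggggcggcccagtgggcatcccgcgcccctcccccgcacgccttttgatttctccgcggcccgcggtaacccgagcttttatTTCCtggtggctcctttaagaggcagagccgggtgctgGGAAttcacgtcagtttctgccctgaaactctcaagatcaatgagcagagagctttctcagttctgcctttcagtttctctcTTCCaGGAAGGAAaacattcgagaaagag
Erg: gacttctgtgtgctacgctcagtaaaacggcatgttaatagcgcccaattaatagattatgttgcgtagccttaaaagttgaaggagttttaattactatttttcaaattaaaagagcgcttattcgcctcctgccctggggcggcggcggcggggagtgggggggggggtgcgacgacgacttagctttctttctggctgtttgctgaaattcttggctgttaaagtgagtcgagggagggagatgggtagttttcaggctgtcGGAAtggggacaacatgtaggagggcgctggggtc
The Etv2 window held 11 matches to GGAA on both strands together, a count that 0.253% of all 32851 windows reach. The Etv6 window held 6, reached by 15.7% of windows, and the first Erg window 1, reached by 96.0%, against a median of 3 over all windows. The other Erg starts had 4 and 2 matches. Among members not called in any comparison, the Elk3 window held 2, the Elf1 windows 2 and 1, and the Ets2 window 1. A count of 2 is reached by 84.6% of all windows. The longer ETS consensus CCGGAAGT and the PU box GAGGAAGT, both of which contain the core, were found in 0 of the 9 member windows. They occur in 3.89% and 3.20% of all windows. The GATA motif AGATAA was in 1 member window, that of the third Erg start, against 11.2% of all windows. A match is a string of letters and not a measured binding site.

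Levels and differences below are on 1 scale, the natural log of the deposited signal read as the authors' RMA log2 value. If the deposited signals are linear instead, every difference and standard error is larger by a factor of 1.44 and the limma p-values are the same. Correlation over all non-control probe sets was 0.981 to 0.986 between replicates and 0.946 to 0.969 between tissues. The 27 probe sets for bacterial RNAs, used here only to mark weak signals, read 1.33 to 4.03. Pecam1, the gene of CD31, did not pass in any comparison. It read 9.49 and 9.61 in heart tube, 10.08 and 9.83 in caudal tissue, and 10.09 and 9.82 in yolk sac. Ptprc, the gene of CD45, was within the bacterial range on all 6 arrays.

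Etv2 showed the widest range of the 9 genes over the 3 tissues. Its level was 8.004 and 8.19 in heart tube, 7.92 and 7.31 in caudal tissue, and 5.46 and 3.93 in yolk sac. Both yolk sac arrays lay below the 4 embryonic arrays, and the second fell within the bacterial range, so the size of the difference rests in part on a signal near background. Etv2 was higher in heart tube than in yolk sac by 3.40 ± 0.48 (SE; n = 2 arrays per tissue; limma adjusted p = 0.00726), which is 10.6-fold on this scale and 30.1-fold if the deposited signals are linear. That size depends on the yolk sac arrays: the difference was 4.17 (18.0-fold) without the first and 2.64 (6.24-fold) without the second. It was higher in caudal tissue than in yolk sac by 2.92 ± 0.48 (limma adjusted p = 0.0168), and by 3.69 without the first yolk sac array and 2.16 without the second. Heart tube and caudal tissue arrays did not overlap, but their difference of 0.48 had a 95% interval from -0.68 to 1.65 and did not pass (limma adjusted p = 0.651). The 13 alternative settings are not separate checks. A change of log base cannot alter a limma p, and leaving out either array of the tissue not compared repeats the fit to only the 4 arrays compared. The difference between heart tube and yolk sac passed under all 13. That between caudal tissue and yolk sac was lost without the first caudal array (2.62, limma adjusted p = 0.0960) and without the second (3.22, limma adjusted p = 0.0577).

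Etv6, the ETS repressor, was also lower in yolk sac, with smaller spread. Yolk sac arrays read 8.17 and 8.37, heart tube arrays 9.09 and 9.24, and the caudal arrays 9.47 and 9.70. The 3 tissues did not overlap, with yolk sac lowest and caudal tissue highest. Etv6 was higher in caudal tissue than in yolk sac by 1.32 ± 0.18 (SE; limma adjusted p = 0.00882) and higher in heart tube than in yolk sac by 0.90 ± 0.18 (limma adjusted p = 0.0245). Heart tube and caudal tissue differed by -0.42, with an interval from -0.85 to 0.01 (limma adjusted p = 0.272). Its other probe set gave differences of 1.32 and 0.87 against yolk sac. Over all single-symbol probe sets, 1.32 passed and 0.87 did not (limma adjusted p = 0.0205 and 0.0585). The difference of heart tube from yolk sac lost its call without any single heart tube or yolk sac array (limma adjusted p from 0.0559 to 0.132), and the caudal difference without the second caudal array (limma adjusted p = 0.0527).

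Markers of the visceral endoderm, the epithelium that covers yolk sac vessels, also differed between the tissues, in the direction opposite to Etv2 and Etv6. Of 11 such genes, 10 were called lower in heart tube and 10 in caudal tissue than in yolk sac. Over all genes 6.67% and 4.86% were called lower. The mean level of the 11 was 9.49 to 9.51 on yolk sac arrays, 4.41 on both heart tube arrays and 4.71 on both caudal arrays. None of the 11 was within the bacterial range on all arrays. Of 11 erythroid markers, 5 were called lower and 1 higher in heart tube than in yolk sac. Their mean levels were 5.70 to 5.89 in heart tube and 6.97 to 7.23 in yolk sac. In caudal tissue, where they averaged 6.13 to 6.42, 5 were called lower and 1 higher than in yolk sac. Epithelial markers averaged 4.69 to 4.72 in heart tube, 6.28 to 6.39 in caudal tissue and 6.96 to 7.20 in yolk sac. Of these 10 genes, 7 were called lower in heart tube and 3 in caudal tissue than in yolk sac. Their part in the differences of Etv2 and Etv6 was not tested. In RNA from a sorted population, fewer cells that express a gene and less of its RNA per cell cannot be told apart.

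**Figure D1:**
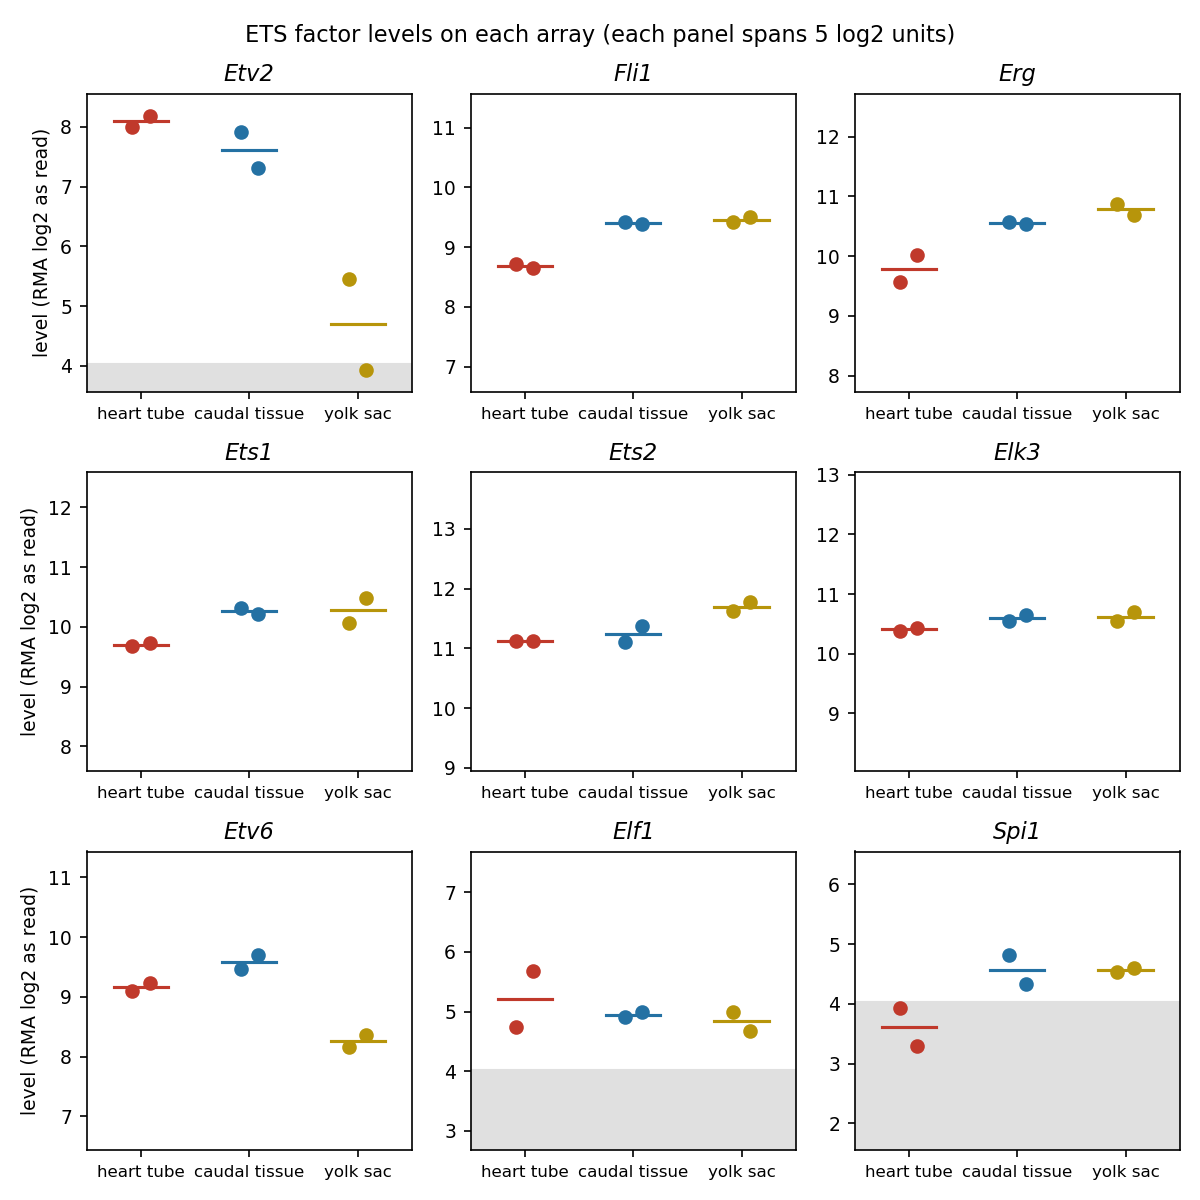
Level of each ETS factor on each of the 6 arrays (points, in the order of replicate) with the tissue mean (bar), on the RMA log2 scale as read. Every panel spans 5 log2 units around the gene's own range, and grey marks values up to the highest bacterial control (4.03). Etv2 and Etv6 are lowest in yolk sac, and Fli1 and Erg are lowest in heart tube.

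Fli1 and Erg, close relatives that maintain endothelial identity, were lower in heart tube. Fli1 was at 8.71 and 8.64 in heart tube, 9.42 and 9.39 in caudal tissue, and 9.42 and 9.498 in yolk sac. Heart tube arrays were the lowest, and the caudal and yolk sac arrays lay close together. The difference from yolk sac was -0.78 ± 0.16 (SE; limma adjusted p = 0.0245), a 1.72-fold lower level. That from caudal tissue was -0.73 ± 0.16 and missed the threshold (limma adjusted p = 0.0518). It passed in 4 of 13 alternatives (limma adjusted p from 0.0123 to 0.217 over the 13). Caudal tissue and yolk sac differed by -0.06, with an interval from -0.43 to 0.32.

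Erg was at 9.57 and 10.02 in heart tube, 10.58 and 10.54 in caudal tissue, and 10.88 and 10.69 in yolk sac. Again heart tube arrays were the lowest, and yolk sac arrays lay just above the caudal ones. Erg was lower in heart tube than in yolk sac, with a difference of -0.99 ± 0.21 (limma adjusted p = 0.0278), a 1.99-fold lower level. The difference between heart tube and caudal tissue was -0.77 ± 0.21 (limma adjusted p = 0.0997), and that between caudal tissue and yolk sac -0.23, with an interval from -0.72 to 0.27. The calls of both genes against yolk sac depend on single arrays. Fli1 was no longer called without any single array of heart tube or yolk sac (limma adjusted p from 0.0771 to 0.127). Erg lost it without the first heart tube array (0.137), without either yolk sac array (0.116 and 0.0669) and without either caudal array (0.0542, all limma adjusted p), where the caudal samples add only to the estimate of spread.

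Other endothelial and non-endothelial genes were also measured beside these 2 factors. In heart tube, 31 endothelial genes described below had a median difference of -0.76 from yolk sac and -0.63 from caudal tissue. Of the 31, 27 and 26 lay below 0, and 4 and 5 above. The difference of Pecam1 between heart tube and yolk sac was -0.41, with an interval from -0.86 to 0.05, and that of Cdh5, the gene of VE-cadherin, was -0.87 (limma adjusted p = 0.0166). Against caudal tissue they were -0.40 and -0.63, and neither passed (limma adjusted p = 0.311 and 0.0784). Cardiomyocyte markers averaged 6.80 to 6.89 in heart tube, 4.90 to 5.0 in caudal tissue and 4.45 to 4.68 in yolk sac. Of these 12 genes, 8 were called higher in heart tube than in yolk sac and 6 higher than in caudal tissue. Over all genes 5.14% and 2.86% were called higher. Of the 12, Nkx2-5 and Ryr2 were within the bacterial range on all arrays. Mesenchymal markers averaged 6.998 to 7.02 in heart tube, 5.49 to 5.50 in caudal tissue and 6.85 to 7.08 in yolk sac. Of the 12 mesenchymal genes, 7 were called higher in heart tube than in caudal tissue, and against yolk sac 4 were called higher and 4 lower. Of the 10 epithelial markers, 6 were called lower in heart tube than in caudal tissue. Which cells of the sort expressed the non-endothelial markers, and their part in the lower Fli1 and Erg, were not tested.

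Ets1, Ets2 and Elk3 passed in no comparison. Ets1, a factor of angiogenesis and lymphoid cells, was at 9.68 and 9.72 in heart tube, 10.31 and 10.21 in caudal tissue, and 10.07 and 10.48 in yolk sac. Heart tube was lowest without overlap, and the other tissues overlapped. Its differences were -0.56 from caudal tissue (interval from -1.02 to -0.09, limma adjusted p = 0.185) and -0.57 from yolk sac (interval from -1.04 to -0.11, limma adjusted p = 0.119). With the mean of its probe sets, the latter was -0.69 and passed (limma adjusted p = 0.0304). Ets2, a target of Ras and MAP kinase signalling, was at 11.12 on both heart tube arrays, 11.11 and 11.37 in caudal tissue, and 11.63 and 11.77 in yolk sac. Yolk sac was highest without overlap. Ets2 differed by -0.58 between heart tube and yolk sac (limma adjusted p = 0.0866) and by -0.46 between caudal tissue and yolk sac (limma adjusted p = 0.175). Both passed only in limma with an intensity trend (adjusted p = 0.0066 and 0.0226).

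Elk3 was the most even gene of the 9. Its 6 arrays read 10.38 and 10.44 in heart tube, 10.55 and 10.65 in caudal tissue, and 10.55 and 10.69 in yolk sac. The widest of its 3 differences was -0.22, between heart tube and yolk sac, with an interval from -0.61 to 0.17. Its 3 other probe sets gave -0.10, -0.46 and -0.86 in that comparison. The last, the dimmest of the 4, passed over all probe sets (limma adjusted p = 0.0485), so the probe sets of Elk3 do not give 1 answer.

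Elf1 and Spi1, the factors of blood cells, had weak signals. Elf1, which acts in lymphoid cells and blood progenitors, was at 4.75 and 5.68 in heart tube, 4.91 and 4.99 in caudal tissue, and 4.99 and 4.68 in yolk sac. All 3 tissues overlapped, and the spread between heart tube arrays was larger than any difference between tissue means. The differences lay between 0.11 and 0.38, with adjusted p from 0.501 to 0.883 in limma. Spi1 was at 3.92 and 3.29 in heart tube, 4.81 and 4.34 in caudal tissue, and 4.53 and 4.60 in yolk sac. Both heart tube arrays fell within the bacterial range and the other 4 were just above it. Heart tube differed by -0.97 from caudal tissue and by -0.96 from yolk sac, with intervals from -1.61 to -0.32 and from -1.60 to -0.31, and neither passed (limma adjusted p = 0.107 and 0.0716). Caudal tissue and yolk sac differed by 0.01, with an interval from -0.63 to 0.66.

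Counted together, 2 of the 9 genes were called higher and 2 lower in heart tube than in yolk sac. There limma called 11.8% of all genes (5.14% higher and 6.67% lower). Between caudal tissue and yolk sac 2 were called higher and 0 lower, against 9.08% of all genes called (4.22% higher and 4.86% lower). Between heart tube and caudal tissue 0 of 9 were called by limma, against 5.51% of all genes (2.86% higher and 2.65% lower). In that comparison 4 members had an unadjusted p under 0.05 in limma, against 19.5% of all genes. It was 7 members between heart tube and yolk sac (26.0% of all genes) and 3 between caudal tissue and yolk sac (23.8%). Limma with an intensity trend called 2 members between heart tube and caudal tissue, Fli1 and Erg, against 7.57% of all genes. The median difference of the 9 was -0.42 between heart tube and caudal tissue (-0.08 over all genes), -0.57 between heart tube and yolk sac (-0.06) and -0.02 between caudal tissue and yolk sac (0.02). The arrays of the tissues did not overlap in 7, 8 and 5 of the 9 genes, against 51.3%, 56.3% and 51.6% of all genes. The 3 comparisons share arrays and are not independent of each other. Without a single heart tube or yolk sac array, the count of 4 called between heart tube and yolk sac fell to 1 or 2, with Etv2 among the called genes each time. The count of 2 between caudal tissue and yolk sac fell to 1 (Etv6) without the first caudal array and to 0 without the second.

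**Figure D2:**
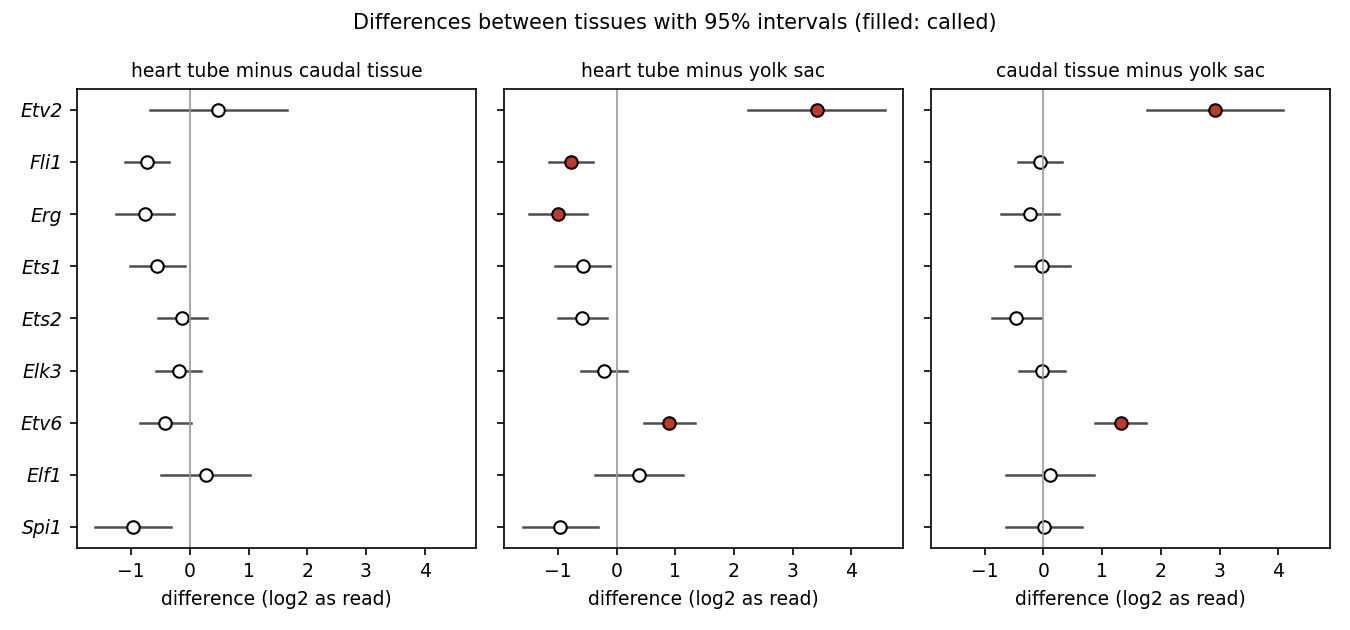
Difference of each ETS factor in the 3 comparisons (points, log2 as read) with 95% intervals from limma (lines). Filled points have an adjusted p under 0.05: there are 0, 4 and 2 of them, and Etv2 has the largest difference, 3.40 between heart tube and yolk sac.

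The other probe sets of a gene mostly gave the direction of the chosen one. Etv2 and Spi1 had 1 probe set each, and the other 7 genes had 12 more besides the chosen ones. Between heart tube and caudal tissue, and between heart tube and yolk sac, every probe set had the sign of its gene's brightest probe set. Between caudal tissue and yolk sac, 1 probe set of Ets1 had the opposite sign (0.12, against -0.02 for the brightest). Some of the other probe sets were dim. The dimmest of Ets2 read 3.68 to 4.27 and the second of Elf1 3.33 to 4.66, beside a bacterial maximum of 4.03. The second Fli1 probe set gave -0.66 and -0.71 for heart tube against caudal tissue and yolk sac, close to the first. The second Erg probe set gave -0.40 and -0.97. Tested over all single-symbol probe sets, 6 of the 21 passed in at least 1 comparison: those of Etv2, both of Etv6, and 1 each of Fli1, Erg and Elk3. Of all such probe sets 13.4% did. The chosen probe set of Ets1 is of a kind whose probes can match transcripts of more than 1 gene.

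**Figure D3:**
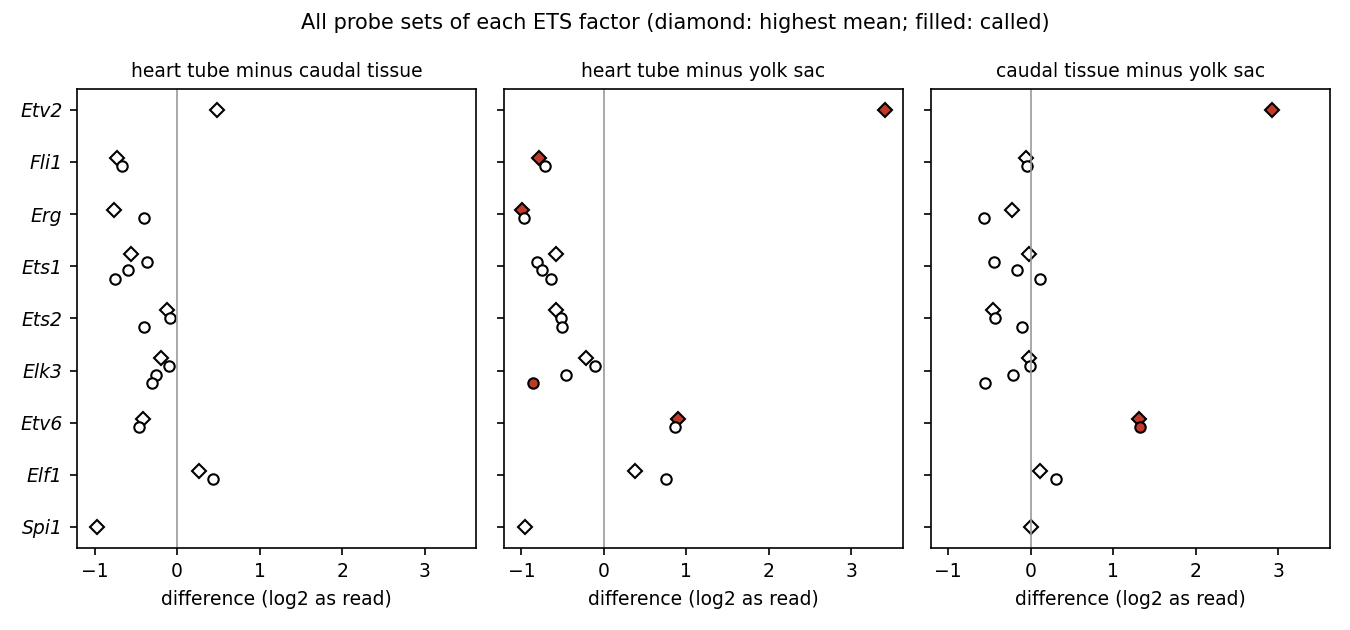
Difference of every probe set of the 9 genes in the 3 comparisons (log2 as read). Diamonds mark the probe set with the highest mean, circles the others, and filled symbols an adjusted p under 0.05 over all probe sets. The 2 probe sets of Etv6 lie together at 1.32 between caudal tissue and yolk sac, whereas those of Elk3 spread from -0.86 to -0.10 between heart tube and yolk sac.

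Members that lie next to each other in the genome were compared by their own values. In the RefSeq gene table Fli1 and Ets1 are neighbours on chromosome 9, and Erg and Ets2 on chromosome 16, with 0 protein-coding genes between them in each pair. In heart tube against yolk sac Fli1 differed by -0.78 and Ets1 by -0.57, and Erg by -0.99 and Ets2 by -0.58. Against caudal tissue Fli1 and Ets1 differed by -0.73 and -0.56, whereas Erg differed by -0.77 and Ets2 by -0.13. Over the 6 arrays Fli1 and Ets1 correlated at r = 0.929 and Erg and Ets2 at 0.701. These are descriptions over arrays that share 3 tissues. The lowest correlation among the 36 pairs of members was between Etv2 and Ets2 (-0.975), and Etv2 and Etv6 correlated at 0.807.

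Of 17 other ETS family genes, 15 were measured, and 6 of them (Elf3, Elf5, Ehf, Spdef, Spib and Spic, mostly factors of epithelium and of B cells or macrophages) were within the bacterial range on all arrays. Limma called 0 of the 15 between heart tube and caudal tissue and 0 between heart tube and yolk sac. Over all genes it called 5.51% and 11.8% there. An unadjusted p under 0.05 was found for 2 and 3 of the 15 (19.5% and 26.0% of all genes). Between caudal tissue and yolk sac 1 of the 15 was called, against 9.08% of all genes (4.22% higher). In that comparison 4 had an unadjusted p under 0.05, against 23.8%. The called gene was Etv4, a target of FGF signalling, higher in caudal tissue. Etv4 was at 6.47 and 5.54 in caudal tissue and 4.74 and 4.68 in yolk sac, a difference of 1.30 ± 0.30 (limma adjusted p = 0.0476). Its relative Etv5, named after its values were seen, was at 7.56 and 7.76 in caudal tissue, 6.53 and 6.79 in heart tube and 6.66 and 7.08 in yolk sac. Its caudal tissue was highest without overlap, and its differences just missed the threshold (heart tube minus caudal tissue -0.997, limma adjusted p = 0.0512; caudal tissue minus yolk sac 0.79, limma adjusted p = 0.0760).

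Among 17 genes whose proteins work with ETS factors, 1 was called (lower) between heart tube and caudal tissue, 2 (higher) between heart tube and yolk sac, and 3 (higher) between caudal tissue and yolk sac. Over all genes the called shares were 5.51%, 11.8% and 9.08%. Foxc2 and Foxc1, forkhead factors that bind FOX:ETS sites together with Etv2, were low in yolk sac, as Etv2 was. Foxc2 was at 9.93 and 9.95 in heart tube, 9.16 and 8.75 in caudal tissue, and 2.71 and 3.42 in yolk sac, within the bacterial range there. Foxc1 was at 7.07 and 7.61 in heart tube, 7.86 and 7.29 in caudal tissue, and 3.75 and 5.09 in yolk sac, where the first array fell within the bacterial range. It was higher by 2.92 and 3.16 in the embryonic tissues (limma adjusted p = 0.0102 and 0.0109). Lmo2, a bridging protein of the complex with Tal1 and Gata2, was at 10.28 and 10.42 in caudal tissue, 8.24 and 8.69 in heart tube, and 9.09 and 8.65 in yolk sac. It was lower in heart tube than in caudal tissue, with a difference of -1.89 ± 0.24 (limma adjusted p = 0.00779) and higher in caudal tissue than in yolk sac by 1.48 ± 0.24 (limma adjusted p = 0.0145). Tal1 and Gata2 passed in no comparison, and their differences lay between -0.09 and 0.24.

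Of 31 endothelial genes known as ETS targets, all were above the bacterial range on all 6 arrays. These genes are also the endothelial cell markers used here, and any link of their differences to those of the ETS factors was not tested. Limma called 11 lower and 2 higher in heart tube than in caudal tissue, against 5.51% of all genes called. It called 14 lower and 0 higher in heart tube than in yolk sac (11.8% of all genes). In caudal tissue 4 were called lower and 2 higher than in yolk sac (9.08%). Called or not, 26, 27 and 21 of the 31 differences lay below 0 in the 3 comparisons, and 5, 4 and 10 above. Over all 18193 genes 10828, 10186 and 8757 lay below 0. The median difference of the list was -0.63, -0.76 and -0.20 in the 3 comparisons, beside -0.08, -0.06 and 0.02 over all genes. The claudin gene Cldn5 had the largest difference from caudal tissue (-3.40) and from yolk sac (-3.54), followed among others by the guidance receptor gene Robo4 (-2.31 and -2.87), the apelin receptor gene Aplnr (-2.21 and -2.56) and the Notch ligand gene Dll4 (-1.54 and -1.47). The transmembrane lectin gene Clec14a was lower in heart tube (-2.90) and in caudal tissue (-2.89) than in yolk sac. Caudal tissue also differed from yolk sac in Emcn, endomucin (1.32), in Tek, the angiopoietin receptor gene (-1.18), and in Ramp2, the adrenomedullin receptor partner gene (-0.98). Eng and Nos3 went the other way, higher in heart tube than in caudal tissue by 0.96 and 0.91. For the sort of these cells, Itga2b, the gene of CD41, was lower in heart tube (-1.41) and in caudal tissue (-1.67) than in yolk sac. It read 6.81 and 6.93 in heart tube, 6.80 and 6.42 in caudal tissue, and 8.37 and 8.18 in yolk sac. All 6 arrays were above the bacterial range. Of 11 megakaryocyte markers, Itga2b among them, 2 were called lower in heart tube and 1 in caudal tissue than in yolk sac. Between heart tube and caudal tissue 1 was called lower in heart tube.

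Of the 15 genes known as targets of Spi1 in myeloid cells, limma called 0 in each of the 3 comparisons. There 2, 4 and 2 had an unadjusted p under 0.05 in limma (19.5%, 26.0% and 23.8% of all genes). On all 6 arrays 8 of the 15 were within the bacterial range, including Itgam, Lyz2 and Elane, and 4 were above it. Among these 4, Cd68 was at 6.82 and 7.02 in heart tube, 6.71 and 6.26 in caudal tissue, and 6.23 and 5.57 in yolk sac. The others did not share this order. In heart tube, caudal tissue and yolk sac, Csf2ra averaged 5.69, 6.0 and 4.96. Fcgr3 averaged 4.72, 5.34 and 5.89, and Msr1 4.58, 4.62 and 4.63. Csf1r, the receptor of macrophage colony-stimulating factor, was at 4.52 and 3.86 in heart tube, 4.47 and 4.41 in caudal tissue, and 4.08 and 4.68 in yolk sac, with all tissues overlapping. Of 12 leukocyte markers, 5 (Ptprc, Cd52, Tyrobp, Adgre1 and Aif1) were within the bacterial range on all arrays. The leukocyte genes that passed did not move together. Cd53 and Itgb2 were higher in heart tube than in both other tissues. Itgb2 was within the bacterial range on 5 of the 6 arrays, all but the first heart tube array, and Cd53 on 3. Coro1a was higher in caudal tissue than in both other tissues, and Laptm5 was higher in caudal tissue than in yolk sac (1.38). The mean level of the 12 was 4.02 to 4.08 in heart tube, 4.06 to 4.13 in caudal tissue and 3.87 to 4.01 in yolk sac.

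**Figure D4:**
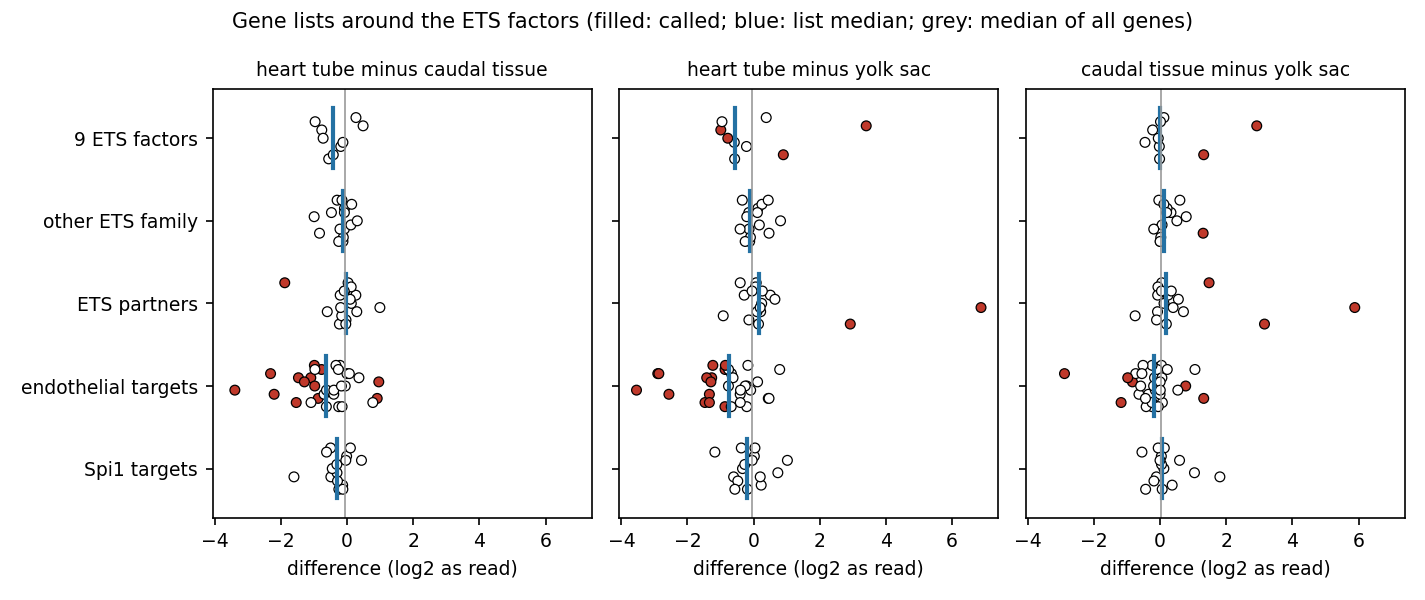
Differences (log2 as read) of the 9 ETS factors, 15 other ETS family genes, 17 partners, 31 endothelial ETS targets and 15 Spi1 targets in the 3 comparisons. Filled points have an adjusted p under 0.05, blue bars mark the list medians and the grey line the median of all genes. The endothelial targets have their medians at -0.63 and -0.76 in heart tube comparisons, and none of the Spi1 targets is filled.

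The genes with the most similar profile were found for the 4 members called in any comparison, among 3003 other called genes. Likeness is the root mean square difference over the 6 arrays of values centred on each gene's own mean. Nearest to Etv2 were Unc5c, a netrin receptor gene (0.284), Pdgfc, a platelet-derived growth factor gene (0.312), and the homeobox gene Six4 (0.329). Unc5c averaged 8.69 in heart tube, 7.73 in caudal tissue and 4.91 in yolk sac. Nearest to Fli1 were Large2 (0.0564), the centrosomal gene Nin (0.0568) and Gja1, the gene of connexin 43 (0.0654). Large2 was within the bacterial range in the tissue means (2.69 to 3.44), and Gja1 averaged 10.19 in heart tube, 10.91 in caudal tissue and 11.03 in yolk sac. Nearest to Erg were Pradc1 (0.0844), the alpha-actinin gene Actn4 (0.0875) and the adhesion gene Nectin2 (0.0907). Nearest to Etv6 were Polr3g, a subunit gene of RNA polymerase III (0.0699), the ribosome assembly gene Gtpbp4 (0.0814) and Nubpl (0.0859). With 6 arrays in 3 tissues, many genes share such profiles.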

How the data were processed

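The submitters' processing notes name RMA and affy as the tools behind the deposited probe set intensity values, without versions. These reached 2172540, far above the 65535 of a scanner. Their natural log (0.899 to 14.6) has the range RMA usually gives on the log2 scale, and the authors' values were used in that form.

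Of 45101 probe sets, 34958 carried 1 symbol, 932 several and 9211 none; 34945 were tested after removal of controls. Each of 18193 genes was represented by its probe set with the highest mean. Tissue means over all 6 arrays were fitted without a covariate in limma 3.58.1 (R 4.3.3; lmFit, eBayes; 3 residual and 3.48 prior degrees of freedom), with two-sided tests; a call required an adjusted p (Benjamini-Hochberg, all genes) under 0.05. The code was tested on simulated data. The number of arrays limits precision: the median standard error was 0.210.

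Members and gene lists were chosen with earlier results of these data known. Named besides the members were called ETS family genes, up to 4 called genes per list and comparison with the largest difference, genes of the sort, markers, and 3 genes per called member with the most similar profile. Alternatives changed the log base, probe set choice, array scaling, dim-gene filter, variance trend, arrays fitted, replicate block and single arrays. Fev and Etv1, listed without a probe set of their own, were not analysed here.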

Additional observations from a re-analysis of the deposited data

How the results depend on the processing

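Over the 9 genes, 3 comparisons and 13 alternatives there were 351 values, of which 314 kept direction and side of the threshold, 18 lost and 9 gained a call, and 10 changed sign, all among differences that were not called. They are not 351 separate checks. The change of log base leaves every limma p as it was. Leaving out either array of the tissue not compared repeats the fit to only the 4 arrays compared. The count called between heart tube and caudal tissue (0) was 1 with the mean of all probe sets, with array medians subtracted and without dim genes (Fli1 each time), and 2 with an intensity trend in eBayes. Between heart tube and yolk sac it was 5 with the mean of all probe sets (Ets1 added) and 6 with the trend (Ets1 and Ets2 added). There the trend also raised the genes called over the whole array, from 936 to 1329 higher and from 1214 to 1441 lower. Between caudal tissue and yolk sac the count was 3 with the trend (Ets2 added). The count between heart tube and yolk sac (4) was 1 to 3 without single arrays, and that between caudal tissue and yolk sac (2) was 0 to 2. Member probe sets called in any comparison (6) became 14 with the trend, 3 with only the 4 arrays compared, 3 with the replicate block, and 1 to 3 without single arrays. Without single arrays the signs changed for Ets2 (-0.26 to 0.0029) and Elf1 (-0.20 to 0.73) between heart tube and caudal tissue, Elf1 between heart tube and yolk sac (-0.086 to 0.85), and Ets1 (-0.22 to 0.19), Elk3 (-0.093 to 0.044), Elf1 (-0.045 to 0.27) and Spi1 (-0.22 to 0.25) between caudal tissue and yolk sac. The cause was not tested.

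Replicate numbers are shared by the tissues, but differences between same-numbered arrays correlated across genes at only 0.0468, 0.0189 and -0.00681, so they give no evidence of pairing. With the replicate block Erg lost its call between heart tube and yolk sac (limma adjusted p = 0.0506), which leaves 3 called members there, and 0 and 2 in the other comparisons. With the trend, genes called over the whole array rose from 767 to 1229 higher between caudal tissue and yolk sac. Without single arrays of the tissues compared they fell to between 208 and 285 higher between heart tube and caudal tissue, where 520 were called.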
